A study of Mus musculus with 10 samples.

Results

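The 10 genes described here are the Sox transcription factor genes Sox2, Sox4, Sox5, Sox6, Sox8, Sox9, Sox10, Sox11, Sox12 and Sox13, chosen by symbol from the Sox genes outside the SoxF group, out of 23238 gene symbols used. The tables used list 7 more such genes (Sox1, Sox3, Sox14, Sox15, Sox21, Sox30 and Sry), which are not among the 10. The genes were measured in endothelial cells purified from orthotopic gliomas, which were grown from GL26l mouse glioma cells placed in the brain of C57BL/6 mice. Sox7 ECKO libraries came from mice with floxed Sox7 alleles (Sox7 fl/fl) and Sox17 ECKO libraries from mice with floxed Sox17 alleles (Sox17 fl/fl). Both carried the Cdh5(BAC)-CreERT2 driver, a tamoxifen-dependent recombinase under the promoter of Cdh5, the gene of VE-cadherin in endothelial cells. Experimental mice received tamoxifen at 20 mg/kg into the abdominal cavity. Whether the Sox7 control and Sox17 control mice carried the driver or received tamoxifen is not stated in the labels, and neither is the age of any animal. There were 2 Sox7 ECKO and 2 Sox7 control libraries, and 3 Sox17 ECKO and 3 Sox17 control libraries. An ECKO and a control library of the same number form a set, which gives 5 sets.

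Sox proteins share a DNA-binding HMG box, named after the box of Sry, and are grouped by the likeness of that box. The SoxF group (Sox7, Sox17 and Sox18) is the group known for its work in endothelium. The other groups are best known elsewhere. SoxB1 (Sox2) keeps neural stem cells undifferentiated. SoxC (Sox4, Sox11, Sox12) acts in many progenitors, including those of neurons. SoxD (Sox5, Sox6, Sox13) has no activation domain of its own and works with partners. SoxE (Sox8, Sox9, Sox10) drives cartilage, astroglia, oligodendrocytes and neural crest. Glioma and glial cells can carry transcripts of several of these genes as well.

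Total counts ran from 2085020 (Sox17 control 1) to 35098704 (Sox17 ECKO 2), and 9735 to 15744 genes had a count. The libraries hold 3′ tags, so CPM (counts-per-million of the scaled library size) does not grow with transcript length and levels of different genes are set side by side per transcript. The lowest level that a count of 0 excludes, taken as 3 counts, lay between 0.0847 CPM in the deepest and 1.36 CPM in the shallowest library and covers counting error only. The targeted gene was low in the libraries labelled for it. Sox7 had 0.577 and 0.664 CPM in the Sox7 ECKO libraries, against 23.1 and 5.9 CPM in the Sox7 control libraries. Sox17 had 1.93, 1.07 and 6.7 CPM in the Sox17 ECKO libraries, against 174, 90.1 and 93.4 CPM in the Sox17 control libraries. Endothelial markers were high in every library. Cdh5 had between 214 and 626 CPM, and all 18 endothelial marker genes together had between 11954 (Sox7 ECKO 1) and 23006 CPM (Sox17 ECKO 2). Sox7 ECKO 1 stood apart by its macrophage markers, with 13655 CPM over 13 genes against 18.6 to 814 CPM in the other 9 libraries, and by its share of the ribosomal RNA precursor Rn45s, 28.8% against 3.93% to 22.2%. Its macrophage sum was above its endothelial sum of 11954 CPM, so that library was not endothelial alone.

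Sox4 was by far the most abundant of the 10 genes, followed by Sox13 and Sox9, and these 3 were the only ones with 10 or more counts in all 10 libraries. Their median levels over the 10 libraries were 247 CPM for Sox4, 31.1 CPM for Sox13 and 13.8 CPM for Sox9. On the log2(CPM + 1) scale Sox4 lay above Sox13 in 10 of 10 libraries by 2.59 on average (SD 1.38 over libraries). Sox13 lay above Sox9 in 10 of 10 libraries, by 1.00 (SD 0.79). Below Sox9 the order by mean level was Sox12, Sox2, Sox6, Sox10, Sox11, Sox5 and Sox8, and no 2 neighbours from Sox9 downward differed by more than the SD of their within-library difference. Sox4 made up between 27.9% (Sox7 ECKO 2) and 90.5% (Sox17 ECKO 2) of the summed CPM of the 10 genes. That sum was 165 and 162 CPM in the Sox7 ECKO libraries, against 341 and 156 CPM in the Sox7 control libraries. It was 229, 333 and 429 CPM in the Sox17 ECKO libraries, against 433, 334 and 364 CPM in the Sox17 control libraries, so the groups overlapped in both arms. For scale, Sox18, the SoxF gene that neither deletion targets, ranged from 59.6 to 618 CPM.

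**Figure D1:**
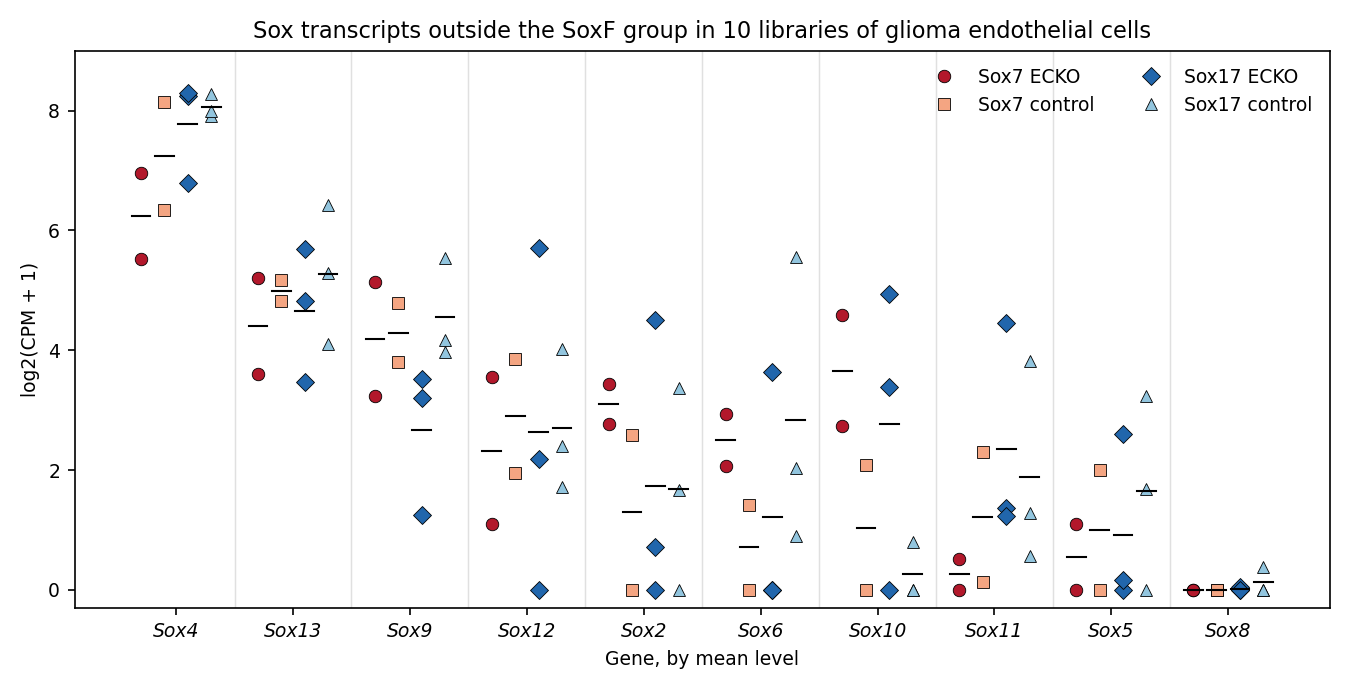
Level of each of the 10 Sox genes in each library, as log2(CPM + 1), with a point per library, a bar at each group mean and the 4 groups apart. Sox4 lies between 45.1 and 314 CPM, above Sox13 in every library, while Sox2, Sox5, Sox6, Sox10, Sox11 and Sox12 each reach 0 in at least 1 library and Sox8 does not exceed 0.31 CPM.

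The promoters of Sox4 and Sox13 are shown because these were the most abundant members. Each window is the 250 bases before the RefSeq start of the gene on GRCm38.p6, written 5′ to 3′ along the gene, and capitals mark GGAA or its reverse complement TTCC, the core of sites bound by ETS factors, a family that acts in endothelium. The Sox4 window is chr13:28953700-28953949 on the minus strand and the Sox13 window is chr1:133424213-133424462 on the minus strand.
Sox4: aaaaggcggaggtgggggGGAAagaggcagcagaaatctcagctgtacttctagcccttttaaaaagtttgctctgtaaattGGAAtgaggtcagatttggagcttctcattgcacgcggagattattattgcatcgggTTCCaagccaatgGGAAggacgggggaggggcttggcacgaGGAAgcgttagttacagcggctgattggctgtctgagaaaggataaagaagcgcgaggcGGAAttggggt
Sox13: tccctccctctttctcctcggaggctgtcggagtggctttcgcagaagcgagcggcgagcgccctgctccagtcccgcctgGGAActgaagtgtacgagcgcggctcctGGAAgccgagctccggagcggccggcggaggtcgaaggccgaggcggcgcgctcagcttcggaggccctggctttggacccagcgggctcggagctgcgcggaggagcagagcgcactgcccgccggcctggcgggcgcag
The Sox4 window held 6 such cores and the Sox13 window 2, in sequence of 50.8% and 72.4% GC. GGAA on either strand was in 93.4% of all 32851 RefSeq promoter windows of this length, so its presence is the usual case. ACAAT, the core of Sox sites, was searched on both strands and was in neither window, against 27.7% of all windows. RefSeq promoters were matched for 8 of the 10 genes, all but Sox9 and Sox10. On GRCm38, with GENCODE vM21, Sox4 is a protein-coding gene with a single exon on chromosome 13 (28948919 to 28953713, minus strand) and Sox13 a protein-coding gene on chromosome 1 (133382303 to 133424377, minus strand). The GENCODE starts of both genes fall inside the windows shown, so part of each window lies within the gene as GENCODE draws it. The exons of Sox4 overlap those of the noncoding gene Gm26735 on the opposite strand, which has no row of its own in the tables used. The strand setting of the counting is not given in the sources used here, so reads of that partner may be included in the Sox4 value. None of the 50-base words in the last 500 bases of any of the 10 genes' transcripts occurred in a transcript of another gene.

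None of the 10 Sox genes passed the test in either deletion. Of the 10 genes 9 passed the filter on low counts and were tested, and Sox8 did not. In the Sox7 comparison 0 of 9 had an edgeR quasi-likelihood adjusted p under 0.05, with 0% of all 13040 genes tested called, and 0 had an unadjusted p under 0.05, against 1.5% of all genes. In the Sox17 comparison 0 of 9 were called, again with 0% of all genes called. There 1 of 9, Sox10, had an unadjusted p under 0.05, against 3.52% of all genes. DESeq2 and limma-voom also called 0 of the 9 in both comparisons. With set as a replicate block, edgeR called 1 gene in the Sox7 and 6 genes in the Sox17 comparison, none of them a member. Of the 9 fold changes 4 were above and 5 below 0 in each comparison, with a median log2 fold change of -0.40 in the Sox7 comparison and -0.15 in the Sox17 comparison, beside 0.04 and 0.05 over all genes tested. The adjusted p of every member was 1 in both comparisons (edgeR). Standard errors of the log2 fold changes ran from 0.63 to 3.37 in the Sox7 comparison and from 0.51 to 2.71 in the Sox17 comparison. In cells purified as a population, fewer cells of a type and less RNA per cell cannot be told apart.

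**Figure D2:**
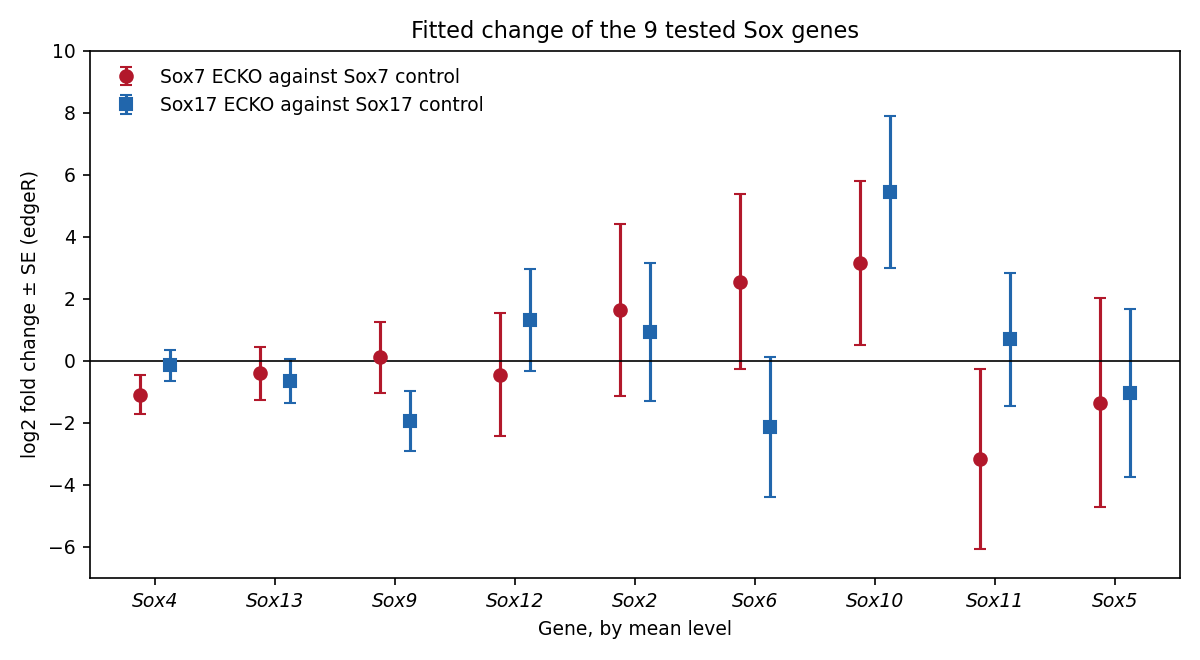
Fitted log2 fold change (ECKO over control, edgeR) with its standard error for the 9 tested Sox genes, in the Sox7 and the Sox17 comparison. The interval is narrowest for Sox4 and wide for the genes with few counts, and the Sox10 value of the Sox17 comparison, 5.44, is the farthest from 0.

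The SoxC genes are described first, since they held most of the counts. Sox4, which acts in progenitor cells and in the developing heart, had 124 and 45.1 CPM in the Sox7 ECKO libraries, against 281 and 80.5 CPM in the Sox7 control libraries. Each Sox7 ECKO library was lower than the control of its own set, by 1.17 in set 1 and 0.82 in set 2 on the log2(CPM + 1) scale, but the groups overlapped because set 2 was low in both. Its log2 fold change was -1.09 (SE 0.63, edgeR unadjusted p = 0.1). Without Sox7 control 1 that value was 0.05, and without Sox7 ECKO 1, the library rich in macrophage markers, it was -2.03. With set as a replicate block the Sox4 log2 fold change was -1.01 (edgeR unadjusted p = 0.0249) and was not called. In that fit 302 of 13040 genes had an unadjusted p under 0.05. In the Sox17 arm Sox4 had 110, 302 and 314 CPM in ECKO libraries, against 241, 253 and 310 CPM in Sox17 control libraries. Sox17 ECKO 1 lay below all 3 controls and the other ECKO libraries lay near the highest of them. The log2 fold change was -0.15 (SE 0.51, edgeR unadjusted p = 0.772), the most precise value among the members.

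Sox12, a SoxC gene with a weaker activation domain than its relatives, had 1.15 and 10.7 CPM in the Sox7 ECKO libraries, against 2.87 and 13.4 CPM in the Sox7 control libraries. Both ECKO libraries were below the control of their set, and both libraries of set 2 were above both of set 1. In the Sox17 arm Sox12 had 0, 3.53 and 51.5 CPM in ECKO libraries, against 2.27, 4.27 and 15.2 CPM in Sox17 control libraries. Set 3 was high in both groups and Sox17 ECKO 3 held the highest level of all 10 libraries. The log2 fold changes were -0.45 (SE 1.99) and 1.32 (SE 1.65), and without Sox17 ECKO 3 the second was -2.02. Sox11, known from the growth of neurons, had 0.433 and 0 CPM in the Sox7 ECKO libraries, against 3.95 and 0.0922 CPM in the Sox7 control libraries. In the Sox17 arm it had 21, 1.58 and 1.36 CPM in ECKO libraries, against 13.2, 0.474 and 1.42 CPM in Sox17 control libraries. Set 1 of the Sox17 arm held both high values and the groups overlapped in both arms, with log2 fold changes of -3.17 (SE 2.90) and 0.69 (SE 2.15). Sox4 supplied 80.8% to 98.7% of the summed SoxC CPM in every library.

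**Figure D3:**
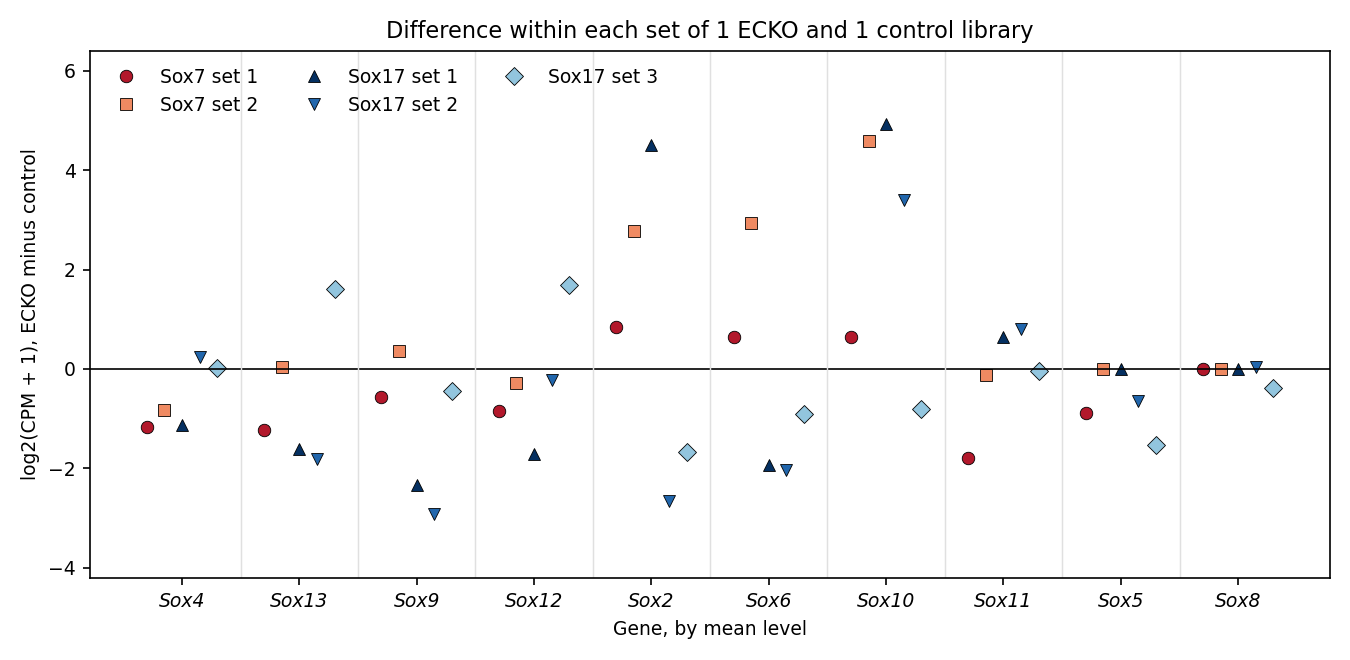
Difference of each Sox gene within each set, ECKO minus control on the log2(CPM + 1) scale, with a point per set and the Sox7 and Sox17 arms apart. None of the tested genes lies on the same side of 0 in all 5 sets, and Sox10 lies above 0 in 4 of 5.

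Among the SoxD genes Sox13 took the largest share, 64.7% to 100% of the summed CPM of its group. Sox13, known from the development of a class of T cells in the mouse, had 11.1 and 36.1 CPM in the Sox7 ECKO libraries, against 27.2 and 35 CPM in the Sox7 control libraries. In the Sox17 arm it had 27.2, 10.1 and 50.9 CPM in ECKO libraries, against 84.9, 38.3 and 16.2 CPM in Sox17 control libraries. In Sox17 sets 1 and 2 the ECKO library was the lower one and in set 3 the control was, so the groups overlapped. The log2 fold changes were -0.40 (SE 0.86) and -0.65 (SE 0.70). Markers of T and NK cells, 6 genes with none at 0 throughout, summed to 16 and 0.133 CPM in the Sox7 ECKO libraries, against 3.59 and 0.0922 CPM in the Sox7 control libraries. They summed to at most 0.993 CPM in the Sox17 ECKO libraries and at most 2.77 CPM in the Sox17 control libraries. The part of these cells in the Sox13 values was not tested. Sox13 followed Sox9 across the 10 libraries (Pearson r = 0.76 of log2(CPM + 1), the highest of any pair of members), a description of libraries that share sets and runs.

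Sox6, a partner of Sox9 in cartilage that also acts in muscle and red cell precursors, had 3.18 and 6.64 CPM in the Sox7 ECKO libraries, against 1.68 and 0 CPM in the Sox7 control libraries, groups that did not overlap. In the Sox17 arm it had 11.4, 0 and 0 CPM in ECKO libraries, against 46.3, 3.08 and 0.867 CPM in Sox17 control libraries. Every Sox17 ECKO library was below the control of its set, although the groups overlapped because both libraries of set 1 were high. The log2 fold changes were 2.55 (SE 2.82) and -2.13 (SE 2.26), and without Sox17 control 1 the second was 0.92. The high value of Sox17 control 1 rests on 102 counts. That library had the highest sum of pericyte markers, 900 CPM beside 814 CPM in Sox17 control 2, and of smooth muscle markers, 469 CPM over 4 genes against 39.2 to 153 CPM in the others. The defining genes of these lists did not all have their highest level there. Rgs5 and Acta2 did, with 640 and 410 CPM, while Pdgfrb had 58.5 CPM beside up to 171 CPM elsewhere and Myh11 had 15.9 CPM beside up to 23.4 CPM elsewhere. The part of these cells in the Sox6 value was not tested. Sox5, the closest relative of Sox6, had 0 counts in 4 libraries. It had 1.15 and 0 CPM in the Sox7 ECKO libraries, against 2.99 and 0 CPM in the Sox7 control libraries, and 0, 5.05 and 0.124 CPM in the Sox17 ECKO libraries, against 0, 8.45 and 2.23 CPM in the Sox17 control libraries. Set 2 of the Sox17 arm held both high values, and the log2 fold changes were -1.36 (SE 3.37) and -1.04 (SE 2.71). The exons of Sox5 overlap those of the antisense gene Sox5os1, so the same reservation on strand holds.

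The SoxE genes Sox10 and Sox9 had the lowest unadjusted p among the members in the Sox17 comparison. Sox9, which directs cartilage formation and marks astroglia and neural stem cells, had 8.25, 1.38 and 10.5 CPM in the Sox17 ECKO libraries, against 45.4, 17.1 and 14.7 CPM in the Sox17 control libraries. All 3 ECKO libraries were below all 3 controls. Sox9 was the only tested member without overlap in that comparison, 1 of 9, where 4.23% of all genes had ECKO libraries wholly below the controls. The log2 fold change was -1.93 (SE 0.97, edgeR unadjusted p = 0.0603, adjusted p = 1), and it ran from -2.42 to -1.26 as each of the 10 libraries was left out. In the Sox7 arm Sox9 had 8.37 and 34.4 CPM in ECKO libraries, against 12.9 and 26.5 CPM in Sox7 control libraries, with set 2 high in both groups (log2 fold change 0.11, SE 1.14). The difference between the Sox7 and the Sox17 effect on Sox9 was 2.05 (SE 1.49, edgeR unadjusted p = 0.185, adjusted p = 1), the lowest unadjusted p of that contrast among the members.

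Marker sums of some other cell types also differed between the Sox17 groups. Pericyte markers, 10 genes with none at 0 throughout, summed to 235, 272 and 272 CPM in the Sox17 ECKO libraries, against 900, 814 and 309 CPM in the Sox17 control libraries, also without overlap. Markers of glioma and neural progenitors, 12 genes of which 1 was at 0 throughout, summed to 199, 206 and 236 CPM in the Sox17 ECKO libraries, against 738, 569 and 287 CPM in the Sox17 control libraries, again without overlap. Most of that sum was Prom1, with 96 to 593 CPM over the 10 libraries, and Nes, with 38.9 to 144 CPM, while the next highest median of the 12, that of Ncan, was 7.23 CPM. In Sox17 control 1 the sum of 738 CPM came with 7 of the 12 genes at 0. Proliferation markers went the other way, with 634, 565 and 773 CPM in the Sox17 ECKO libraries, against 280, 288 and 555 CPM in the Sox17 control libraries. Astrocyte markers overlapped between the groups, with 223 to 329 CPM in the Sox17 ECKO libraries and 205 to 543 CPM in the Sox17 control libraries. Gfap, which defines reactive astrocytes, was at or below 0.963 CPM in all 6. Aqp4, the other defining astrocyte gene, had 0 CPM in every Sox17 ECKO library, against 0, 4.27 and 0.372 CPM in the Sox17 control libraries. In the Sox7 arm both libraries of set 2, where Sox9 was high, had astrocyte sums of 986 CPM in Sox7 ECKO 2 and 872 CPM in Sox7 control 2, against 205 and 173 CPM in set 1. The part of these cells in the Sox9 values was not tested.

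Sox10, which drives oligodendrocyte differentiation and the neural crest lineages of Schwann cells and melanocytes, had 29.6, 9.51 and 0 CPM in the Sox17 ECKO libraries, against 0, 0 and 0.743 CPM in the Sox17 control libraries. These levels rest on 215, 337 and 0 counts in the ECKO libraries, against 0, 0 and 12 counts in the controls. Sox17 ECKO 1 and 2 were far above every control and Sox17 ECKO 3 was at 0, so the groups overlapped. The fitted log2 fold change was 5.44 (SE 2.44, edgeR unadjusted p = 0.0383, adjusted p = 1), a value that depends on how the fit treats the 2 controls at 0. It ran from 4.02 to 10.17 as each library was left out. In the Sox7 arm Sox10 had 5.63 and 23.1 CPM in ECKO libraries, against 3.23 and 0 CPM in Sox7 control libraries. The groups did not overlap there, and the log2 fold change was 3.15 (SE 2.65, edgeR unadjusted p = 0.25). Sox10 was higher in the ECKO library in 4 of 5 sets and lower in Sox17 set 3. Sox8, which overlaps Sox10 in function in oligodendrocytes, had 1 count in Sox17 ECKO 2, 5 counts in Sox17 control 3 and none in the other 8 libraries. The 5 counts correspond to 0.31 CPM, above the 3-count floor of 0.186 CPM in that library, and Sox8 was below the floor in the other 9.

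Markers of oligodendrocytes, 12 genes of which 3 were at 0 throughout, summed to 247, 212 and 126 CPM in the Sox17 ECKO libraries. They summed to 172, 324 and 288 CPM in the Sox17 control libraries, and the groups overlapped. Mal had the highest median of the 12 genes over the 10 libraries, 206 CPM, beside 15.2 CPM for Cnp, the next highest. Mog, a surface protein of myelin, had 0 counts in all 10 libraries, and Mlana, a melanocyte gene, did too. Mbp, a main protein of myelin, had 0.963, 2.62 and 10.8 CPM in the Sox17 ECKO libraries, against 0, 5.21 and 0.0619 CPM in the Sox17 control libraries and its highest level was in Sox17 ECKO 3, a library with no Sox10 count. Olig1, a factor of oligodendrocyte precursors, had 19.9, 9.23 and 2.48 CPM in the Sox17 ECKO libraries, against 0, 13.7 and 1.36 CPM in the Sox17 control libraries. In the Sox7 arm Olig1 had 3.46 and 29.9 CPM in ECKO libraries, against 2.51 and 14.7 CPM in Sox7 control libraries. The 3 libraries with the most Sox10 had at least 9.23 CPM of Olig1, yet Sox17 control 2 and Sox7 control 2 had more than 9.23 CPM of it with no Sox10 count. Olig2, another precursor factor, had 5.92, 0 and 0 CPM in the Sox17 ECKO libraries, against 9.98, 1.26 and 0.0619 CPM in the Sox17 controls. In the Sox7 ECKO libraries Olig2 had 5.92 and 4.65 CPM, against 1.92 and 13.2 CPM in the Sox7 controls. The 8 precursor markers summed to 13 to 66.6 CPM in the Sox17 ECKO libraries, against 16.5 to 53.8 CPM in the Sox17 controls. Their sums were 36.8 and 76.3 CPM in the Sox7 ECKO libraries, against 28.9 and 70.1 CPM in the Sox7 controls. Cspg4, which is also among the pericyte markers, had the highest median of the 8, 25.7 CPM, beside 6.35 CPM for Olig1, the next highest. The part of glial or tumour cells in the Sox10 values was not tested.

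**Figure D4:**
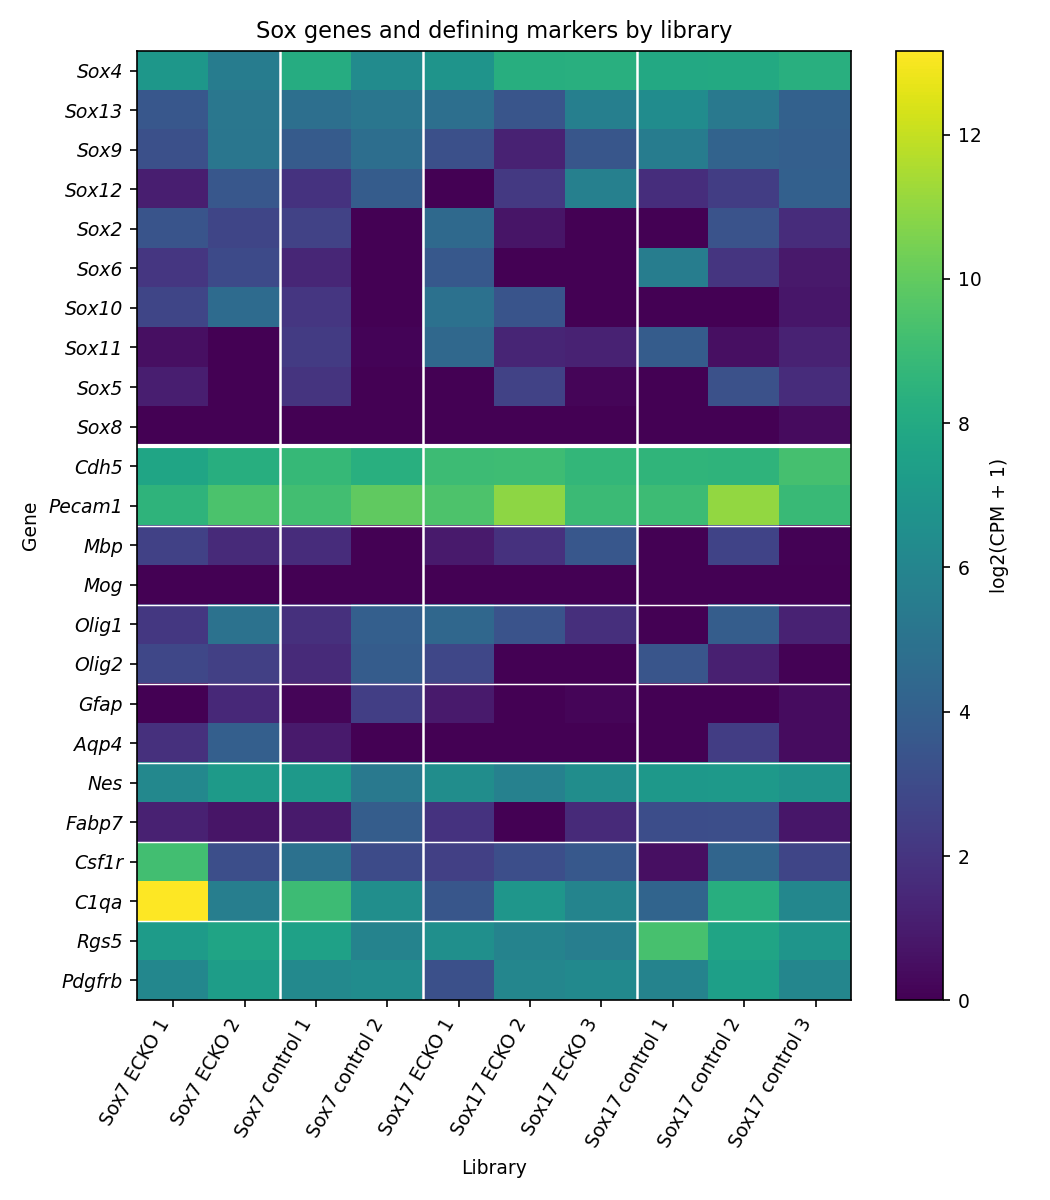
Levels of the Sox genes and of defining marker genes of endothelium and other cell types in each library, as log2(CPM + 1), with ECKO libraries left of their controls in each arm. Cdh5 and Pecam1 are high throughout, Mog is at 0 throughout, and C1qa is highest in Sox7 ECKO 1 with 9172 CPM.

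Sox2, the SoxB1 factor of neural stem cells and of many gliomas, had 9.81 and 5.84 CPM in the Sox7 ECKO libraries, against 5.03 and 0 CPM in the Sox7 control libraries, without overlap. In the Sox17 arm it had 21.7, 0.649 and 0 CPM in ECKO libraries, against 0, 9.32 and 2.17 CPM in Sox17 control libraries. The ECKO library was the higher one in set 1 and the lower one in sets 2 and 3. The log2 fold changes were 1.64 (SE 2.78) and 0.94 (SE 2.23), and without Sox17 ECKO 1 the second was -3.48. Sox2 lies within the noncoding gene Sox2ot on the same strand without shared exons, and Sox2ot had 0 to 7 counts per library. Sox2 was highest in Sox17 ECKO 1. Nes, an intermediate filament of neural progenitors that vessels also express, had 85.4 CPM in Sox17 ECKO 1, within its range of 38.9 to 144 CPM. Fabp7, a lipid-binding protein of radial glia, had 2.75 CPM in that library, against up to 13.9 CPM elsewhere. The part of progenitor or tumour cells in the Sox2 values was not tested. Of the 7 further Sox genes, Sox1, a SoxB1 relative of Sox2, had 39 counts in Sox7 ECKO 2 and at most 6 elsewhere. Sox21 had 87 counts in the same library and 31 in Sox17 control 2. Sox3 and Sox14 had at most 3 counts in any library, and Sox15, Sox30 and Sry had none.

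Read over all members, directions varied between sets. In the Sox7 comparison 3 of the 9 tested members (Sox2, Sox6, Sox10) had both ECKO libraries above both controls, where 12.7% of all genes did, and 0 had both below, where 12.8% did. Beside these 3, oligodendrocyte markers summed to 161 and 437 CPM in Sox7 ECKO libraries, against 240 and 391 CPM in Sox7 control libraries, with overlap. That sum was mostly set by Mal, with 91.6 to 403 CPM over the 10 libraries, and 4 of the 5 tested genes were fitted above 0. The 11 SoxE targets in myelin, a list without Mal, summed to 71 and 40.6 CPM in Sox7 ECKO libraries. They summed to 24.1 and 16.2 CPM in Sox7 control libraries, without overlap. Glioma and neural progenitor markers overlapped, with 226 and 540 CPM in Sox7 ECKO libraries and 473 and 340 CPM in Sox7 control libraries. The part of these cells in the 3 members was not tested. In both Sox7 sets 3 of 9 were higher in ECKO (the same Sox2, Sox6 and Sox10), beside 22.3% of all genes, and 3 (Sox4, Sox11, Sox12) were lower, beside 22.5%. In the Sox17 comparison 0 of 9 had ECKO libraries wholly above the controls, where 4.13% of all genes did. There 0 of 9 were higher in ECKO in all 3 sets, beside 13.1% of all genes, and 2 of 9 (Sox6, Sox9) were lower, beside 11.5%. In all 5 sets together 0 of 9 were higher and 0 of 9 lower, beside 3.32% and 3.34% of all genes. The difference between the Sox7 and the Sox17 effect was called for 0 of 9 members (edgeR), with 0% of all genes called and adjusted p = 1 for each of the 9. An unadjusted p under 0.05 was found for 0 of 9 members, against 2.87% of all genes.

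Genes known as targets of these factors were followed in 4 lists with 33 genes, 21 of them tested, and 0 were called in either comparison. By edgeR's unadjusted p 2 of the 21 were under 0.05 in each, beside 1.5% of all genes in the Sox7 and 3.52% in the Sox17 comparison. The SoxE targets in myelin had a median log2 fold change of 2.75 over 6 tested genes in the Sox7 comparison and of -0.44 in the Sox17 comparison, where Sox10 had its value of 5.44. All 6 were fitted above 0 in the Sox7 comparison, and 2 of 6 in the Sox17 comparison. Cnp, an enzyme of myelin membranes, was the most abundant, with a median of 15.2 CPM and log2 fold changes of 1.56 (SE 1.02) and 0.47 (SE 0.82). Mbp had 1.67 (SE 3.00) and 1.41 (SE 2.42), and Mag, an adhesion protein of myelin, 3.41 (SE 3.56) and -8.74 (SE 3.69). Mag had 0 counts in 6 libraries and a median level of 0 CPM. Its edgeR unadjusted p in the Sox17 comparison, 0.0306, was 1 of the 2 under 0.05 there. The SoxC targets had medians of -0.13 and 0.20 over 5 tested genes. Stmn1, a regulator of microtubules, had a median of 128 CPM and log2 fold changes of -0.47 (SE 0.48) and 0.20 (SE 0.39), and Sema3f, a guidance protein, had 1.81 (SE 0.69, edgeR unadjusted p = 0.0169, adjusted p = 1) and 0.72 (SE 0.55). Tead2 and Ezh2, a partner of Yap and a histone methyltransferase, had values between -0.65 and -0.06 in both comparisons.

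The cartilage targets of Sox9, Sox5 and Sox6 were near the floor in most libraries, with medians of -0.61 and 2.21 over 4 tested genes. Col2a1, the main collagen of cartilage, had a median of 1.62 CPM and log2 fold changes of -1.84 (SE 2.89) and 0.92 (SE 2.28). Col11a1, Col9a1 and Hapln1, other parts of cartilage matrix, had median levels between 0.0619 and 0.904 CPM. The neural targets of Sox2 had medians of -0.12 and -2.12 over 6 tested genes, and all 6 were fitted below 0 in the Sox17 comparison. Notch1, a receptor that endothelium also uses, was the most abundant with a median of 178 CPM and log2 fold changes of -0.54 (SE 0.49) and -0.29 (SE 0.40), and Nes had 0.29 (SE 0.58) and -0.69 (SE 0.47). Hes5, a target of Notch in neural progenitors, had fitted values of 9.35 (SE 4.27) and -8.72 (SE 3.30), with a median level of 0 CPM. Fabp7 had -2.91 (SE 2.83) and -1.78 (SE 2.22). Over the 13 marker lists of other cell types, endothelium and proliferation, 98 of 125 genes were tested and 0 were called in either comparison, while 4 in the Sox7 and 10 in the Sox17 comparison had an unadjusted p under 0.05 (edgeR), beside 1.5% and 3.52% of all genes.

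The genes whose levels ran most alike with each member over the 10 libraries were taken as the 3 with the highest Pearson r of log2(CPM + 1), a description of libraries that share sets, runs and depth. For Sox4 these were Tbx4 (r = 0.945), Sp4 (0.943) and Frem2 (0.936). For Sox13 they were Hadhb (0.934), Prrc2b (0.927) and Palm (0.921). For Sox9 they were Creb1 (0.943), Zfp780b (0.936) and Slc25a28 (0.935), and for Sox12 Smg6 (0.902), Tet3 (0.890) and Nos3 (0.872), the last being the nitric oxide synthase of endothelium. For Sox6 the likest was Tagln (0.934), a smooth muscle gene, ahead of Hba-a2 (0.931) and Arid1b (0.930). Hba-a2 is one of a pair of near-identical globin genes whose reads the counting could have split. For Sox10 they were Rgs9 (0.959), 1700066B19Rik (0.935) and Gtf3a (0.922), and for Sox2 Eif2b4 (0.967), Nat8l (0.954) and Prkca (0.949). For the sparsest members they were Lhx2 (0.993), 6330549D23Rik (0.988) and Tubgcp4 (0.960) with Sox5, and Zfp873 (0.931), Tube1 (0.926) and Mum1l1 (0.916) with Sox11. In genes with 0 counts in several libraries such values rest on 1 or 2 libraries.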

How the data were processed

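The authors deposited whole-number counts per gene symbol, 1 file per library and not normalised. Libraries were made with the Lexogen QuantSeq kit from Trizol-extracted RNA (500 ng), per the labels' protocols, and sample tags close to transcript 3′ ends. Bowtie2, edgeR and the build mm10 are named per the submitters' processing notes, while the annotation and the counting tool and its strand setting are not given in the sources used here. No molecular identifiers are mentioned, so tags are not independent molecules. Of 24421 symbols in the Sox17 files, 1183 beginning with Mir had no row in the Sox7 files and were left out.

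A single model with 4 group means and 6 residual degrees of freedom was fitted to the counts of the 10 libraries by the quasi-likelihood F-test of edgeR 4.0.16 (robust) in R 4.3.3, after TMM scaling and filterByExpr, which removed 10198 symbols and left 13040. P-values were adjusted over all of these by Benjamini and Hochberg, with a threshold of 0.05. SE is the size of the log2 fold change over the square root of F. CPM was computed from TMM-scaled library sizes. Alternatives were RLE scaling, no filter, a replicate block by set, DESeq2 1.42.0, limma-voom (limma 3.58.1), each arm alone, Rn45s left out and each library left out in turn. The labels do not say that libraries came from separate animals, so p-values cover only the variation among these libraries, part of which may be technical. Shared run labels pair the libraries in 4 of 5 sets, and the design text calls the sets independent. Deviations of paired libraries from their group means correlated over genes at 0.193 in the Sox7 arm and at 0.12, 0.0911 and 0.0896 in the Sox17 sets.

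The members and the gene lists were chosen with earlier results of these data known. All members were named, besides the SoxF genes, the other Sox rows, the defining genes of the marker lists that bear on a member, the 4 most abundant tested genes of each target list and the 3 genes most alike to each member. Some genes that this rule names are not reported here.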

Additional observations from a re-analysis of the deposited data

Results flagged for a closer look

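Sox6 is listed because its difference pointed one way in both Sox7 sets and the other way in all 3 Sox17 sets. The set directions that follow are this rule itself. Of all genes tested, 22.3% were higher in ECKO in both Sox7 sets and 11.5% were lower in all 3 Sox17 sets. The share of genes that meet the whole rule was not computed. Both Sox7 ECKO libraries were above the control of their set, by 0.64 and 2.93 on the log2(CPM + 1) scale, and all 3 Sox17 ECKO libraries were below theirs, with differences of -1.93, -2.03 and -0.90. The fitted difference between the Sox7 and the Sox17 effect was 4.68 (SE 3.63, edgeR unadjusted p = 0.215, adjusted p = 1) and did not pass the test. It was above 0 under every alternative run and ran from 1.60 to 13.17 as each library was left out.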

How the results depend on the processing

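No member was called under any setting run, and the lowest adjusted p of a member was 0.577 (Sox10, Sox17 comparison, DESeq2). Of 303 recomputed member fold changes in the Sox7 and Sox17 comparisons 282 kept their sign and 21 did not, 15 of these on leaving out a library. For the difference between the arms 127 of 144 kept it. With the replicate block, Sox9 in the Sox7 comparison was -0.12, Sox2 and Sox12 in the Sox17 comparison were -2.86 and -0.68, and the Sox5 difference between the arms was 0.99. With limma-voom the same 4 values were -0.15, -1.12, -1.39 and 1.70, and the differences of Sox10 and Sox12 were 0.48 and 0.51. The cause was not tested. Leaving out each library gave, in the Sox7 comparison, -2.03 to 0.05 for Sox4, -7.18 to 5.75 for Sox5, -1.24 to 0.78 for Sox9, -7.61 to 1.10 for Sox11, -2.80 to 1.05 for Sox12 and -1.48 to 0.19 for Sox13. In the Sox17 comparison it gave -3.48 to 2.67 for Sox2, -0.38 to 0.19 for Sox4, -5.55 to 0.57 for Sox5, -10.64 to 0.92 for Sox6, -1.74 to 3.04 for Sox11, -2.02 to 2.47 for Sox12 and -1.31 to 0.10 for Sox13. For the difference between the arms it gave -1.05 to 8.61 for Sox2, -1.87 to 0.20 for Sox4, -6.14 to 6.79 for Sox5, -7.02 to 4.99 for Sox10, -8.27 to 0.45 for Sox11, -4.12 to 1.57 for Sox12 and -0.83 to 0.91 for Sox13. Over all genes the count called was 0 in each of the Sox7, Sox17 and difference contrasts. It was 58, 30 and 58 with no filter, 1, 6 and 3 with the replicate block, and 3, 29 and 14 with DESeq2. On leaving out a library it ran over 0 to 14, 0 to 1 and 0 to 9. Sox10 did not pass the filter in the fit of the Sox17 libraries alone, and Sox8 passed it in none of the fits that filter. There were 2 or 3 libraries a group, 7 members had a median below 4 CPM, and the common biological coefficient of variation over all genes was 0.989. The best counted member, Sox4, still had standard errors of 0.63 and 0.51.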
